A study of Mus musculus with 8 samples.

Results

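Transcripts for the enzymes of the citric acid cycle and of mitochondrial fatty acid oxidation were examined in mouse striatum, as 37 listed genes in 3 sections: 4 for the entry of pyruvate, 14 for the cycle itself and 19 for fatty acid oxidation. A gene was counted as measured when a probe carrying its symbol was detected, with a detection p under 0.05 against the background of its own array, on at least 4 of the 8 arrays. By this rule 33 of the 37 genes were measured, out of 10008 measured genes in all: 3 of 4 for pyruvate entry, 14 of 14 for the cycle and 16 of 19 for fatty acid oxidation. The probes of Pdhx, Cpt1a and Hadh were each detected on 0 of the 8 arrays, and Hadha was not analysed here.

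The study set PGC-1α null mice against mice labelled PGC-1α wild type, all on a C57BL/6 background and at postnatal day 30, with 4 bead arrays per group from striatal tissue. PGC-1α, encoded by Ppargc1a, is a transcriptional coactivator, so the comparison asks how striatal transcripts differ without it. In the title of the series the deletion is placed in medium spiny neurons, the projection neurons of the striatum, whereas the samples carry the label null with no cell type of deletion. Neither the driver of a cell-specific deletion nor the part of the gene removed is given in the sources used here, and whether each replicate was its own animal is not stated, so the p-values cover no more than the spread from sample to sample, and that spread may be technical.

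The citric acid cycle burns acetyl groups in the mitochondrial matrix and hands their electrons to the respiratory chain. Pyruvate dehydrogenase feeds it with acetyl-CoA made from glucose, and beta-oxidation feeds it with acetyl-CoA cut from fatty acids that the carnitine shuttle has carried into the matrix. In muscle, heart and brown fat PGC-1α is known to raise many genes of both routes together with estrogen-related receptors and with NRF1, whereas the brain as a whole draws mainly on glucose and oxidises fatty acids largely in astrocytes. In striatal tissue all cell types contribute RNA, so fewer cells of a type and less RNA per cell cannot be told apart.

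Mean raw intensity ran from 295 to 499 per array and 13009 to 13910 probes were detected. All 10 measured markers of medium spiny neurons were detected on all 8 arrays. Y-linked transcripts were high on null replicates 1, 2 and 4 and on wild-type replicate 2, so sex was unequal between the groups. On the 1 chip that held the 8 arrays, null samples took the last 4 positions and wild-type samples the first 4, so an effect of position cannot be told apart from one of genotype. The probe for Ppargc1a read 7.30, 8.09, 8.10 and 7.43 in null replicates 1 to 4, against 7.35, 7.22, 7.90 and 7.98 in wild-type replicates 1 to 4 (normalized log2 intensity, the scale of every level below). The groups overlapped, with a difference of 0.12 (null minus wild-type, 95% interval -0.38 to 0.62, limma adjusted p = 0.937). A probe outside the deleted part would not check the genotype, so each direction below rests on the labels.

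None of the 33 measured genes passed the test between null and wild-type striatum. In limma's fit over all 13413 detected probes with Benjamini-Hochberg adjustment, 0 of the 33 genes had an adjusted p under 0.05, beside 0 of all 10008 genes (0.0%). At an unadjusted p under 0.05, 1 of the 33 was lower in null arrays (Acadl) and 0 were higher, where 3.93% of all genes were lower and 3.04% higher. No measured member had groups that did not overlap, where 2.75% of all genes lay wholly lower and 1.5% wholly higher in null arrays. The signs of the differences were mostly negative: 26 of the 33 genes (78.8%) lay below their wild-type mean in null arrays and 7 above, with a median log2 difference of -0.07. Across all genes 51.5% lay below and the median was -0.01.

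In the fit without covariates the differences were small and their errors narrow enough to bound them. Among the 33 genes the median size of the log2 difference, whatever its sign, was 0.087, against 0.118 over all genes, and the median standard error (SE) was 0.14. For 31 of the 33 (93.9%) the whole 95% interval lay within a 1.5-fold change in either direction, compared with 78.5% of all genes. The exceptions were Acadl and Sucla2, a subunit of succinyl-CoA synthetase whose probe was detected on 2 null and 3 wild-type arrays. The interval included 0 for 32 of the 33 genes. With sex as a covariate the differences of the cycle ran from -0.43, for Idh3a, to 0.07. The intervals of that fit were not counted.

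**Figure D1:**
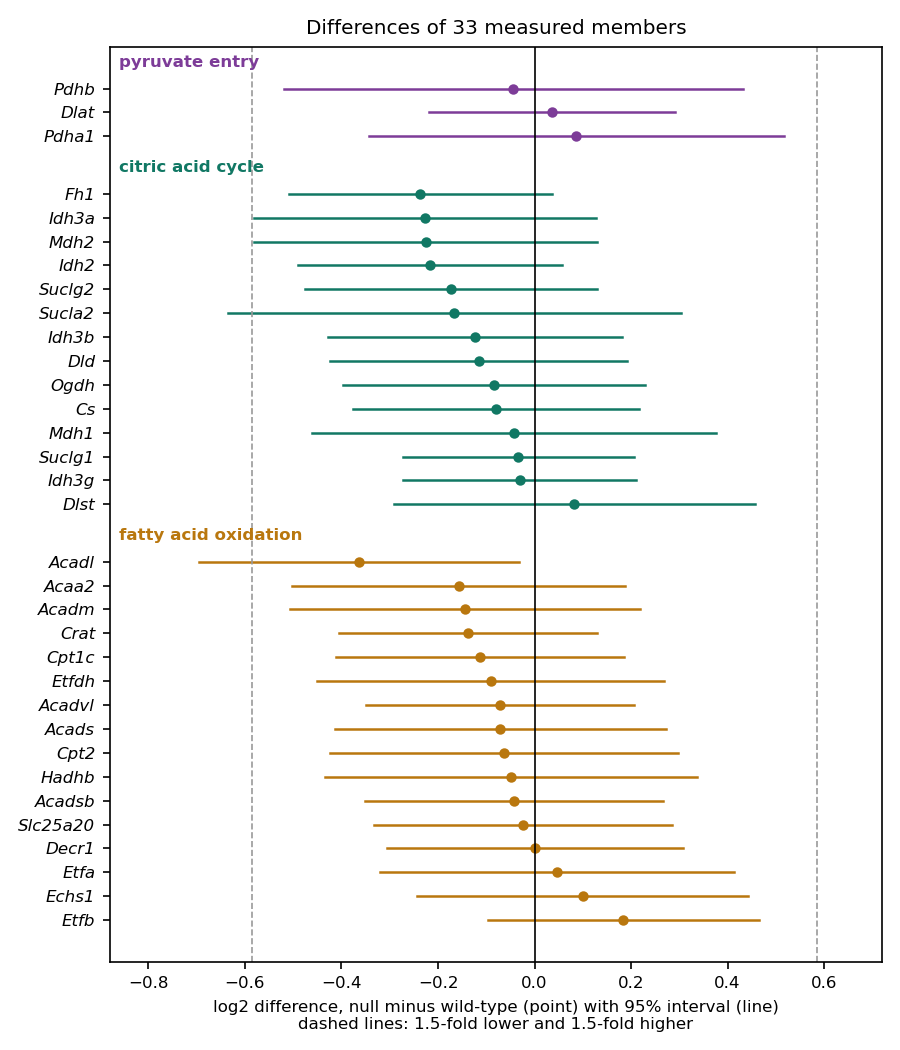
Log2 difference between null and wild-type arrays (x axis, null minus wild-type, points) with its 95% interval (lines) for each of the 33 measured genes (rows), by section; dashed lines mark 1.5-fold. Points of the cycle run from -0.24 to 0.08, those of fatty acid oxidation from -0.36 to 0.18, and every line but that of Acadl includes 0.

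Promoter windows are shown for the genes whose window holds a core motif of the factors through which PGC-1α is known to act, as the places where such binding would be looked for; no binding was measured here. RefSeq windows (GRCm38.p6, 250 bases before to 50 after a start site) were found for 29 of the 33 measured genes. Both strands were searched for TCAAGGTCA, the motif of estrogen-related receptors, for AAGGTCA, its core and thus contained in it, and for GCATGCGC, the core of the NRF1 motif. The long motif was in the windows of 0 of the 29 genes and of 0.466% of all 27025 genes with a window. Its core was in 2 of the 29 (6.9%), Ogdh and Acadm, and in 5.38% of all genes. The NRF1 core was in 4 of the 29 (13.8%), Ogdh, Acadm, Etfa and Etfdh, and in 3.05% of all genes. The shares over all genes take in genes not measured in striatum, so the sets compared are unlike. A gene with several windows counted when any of them held the motif. A match is a run of letters and not a shown site. In the windows below, read 5′ to 3′ along the gene's strand, capitals mark the matches.
Acadm, chr3:153944594-153944893, minus strand: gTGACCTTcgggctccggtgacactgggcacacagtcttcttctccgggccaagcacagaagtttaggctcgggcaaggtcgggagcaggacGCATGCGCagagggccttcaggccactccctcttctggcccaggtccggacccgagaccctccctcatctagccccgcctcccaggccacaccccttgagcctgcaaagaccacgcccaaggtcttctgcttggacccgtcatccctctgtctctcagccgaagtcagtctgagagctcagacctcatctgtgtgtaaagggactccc
Etfdh, chr3:79628718-79629017, minus strand: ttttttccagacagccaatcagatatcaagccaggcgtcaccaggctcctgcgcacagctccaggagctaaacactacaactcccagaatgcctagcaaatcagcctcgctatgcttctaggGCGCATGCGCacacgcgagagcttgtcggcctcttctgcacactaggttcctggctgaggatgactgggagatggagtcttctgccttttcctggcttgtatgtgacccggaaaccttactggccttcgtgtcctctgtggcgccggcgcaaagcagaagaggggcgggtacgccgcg
Etfa, chr9:55512194-55512493, minus strand: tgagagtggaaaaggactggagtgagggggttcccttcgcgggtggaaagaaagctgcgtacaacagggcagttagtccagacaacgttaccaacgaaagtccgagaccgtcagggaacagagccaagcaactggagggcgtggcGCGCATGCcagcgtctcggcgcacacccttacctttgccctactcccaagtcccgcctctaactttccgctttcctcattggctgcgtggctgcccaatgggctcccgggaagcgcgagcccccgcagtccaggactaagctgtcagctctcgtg
Ogdh, chr11:6291920-6292219, plus strand: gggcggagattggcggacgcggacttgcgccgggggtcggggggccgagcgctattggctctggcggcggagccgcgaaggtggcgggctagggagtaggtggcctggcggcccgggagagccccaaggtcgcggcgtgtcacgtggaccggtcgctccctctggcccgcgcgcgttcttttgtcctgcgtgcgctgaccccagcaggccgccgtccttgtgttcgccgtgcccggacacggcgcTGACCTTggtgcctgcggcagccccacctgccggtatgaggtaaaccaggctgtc
In Acadm, which encodes medium-chain acyl-CoA dehydrogenase, the reverse complement of AAGGTCA begins 249 bases before the start site and GCATGCGC begins 158 bases before it. In Ogdh the reverse complement of AAGGTCA begins 5 bases before the start site shown, and its GCATGCGC match lies in windows of other start sites. The 4 genes carried differences of -0.14 (Acadm), -0.09 (Etfdh), 0.05 (Etfa) and -0.08 (Ogdh), and none had an unadjusted p under 0.05.

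Pyruvate dehydrogenase turns pyruvate into acetyl-CoA, and its measured genes did not differ between the groups beyond their spread. Differences ran from -0.04 to 0.09 with a median of 0.04, 2 genes lying higher and 1 lower in null arrays. Dld, which serves this complex too, is given with the cycle. Pdha1, the X-linked catalytic alpha subunit, read 10.02, 10.44, 9.88 and 9.74 in null replicates 1 to 4, against 10.04, 10.33, 9.90 and 9.46 in wild-type replicates 1 to 4. In both groups replicate 2 was highest and replicate 4 lowest, and the groups overlapped over most of their range (difference 0.09, SE 0.20, limma adjusted p = 0.945). Pdhb, the beta subunit, read 9.34 in null replicate 2 and 8.25 in null replicate 4, with 8.77 and 9.09 in null replicates 1 and 3, against 9.06, 9.12, 8.91 and 8.54 in wild-type replicates 1 to 4. Null arrays held both its highest and its lowest value, a spread of 1.09 over the 8 arrays that was the widest of the 33 genes. Its difference was -0.04 (SE 0.22), and a second detected probe of the gene gave 0.03. Dlat, the acetyltransferase core of the complex, read 8.35, 8.24, 8.27 and 8.48 in null replicates 1 to 4, against 8.30, 8.47, 8.24 and 8.20 in wild-type replicates 1 to 4. Its values lay within 0.28 of each other, and the difference was 0.04 (SE 0.12, limma adjusted p = 0.963). The sign of the section's median turned with single arrays, to -0.05 without null replicate 2 and -0.07 without wild-type replicate 4, and to -0.04 with sex as a covariate.

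For the citric acid cycle, 13 of the 14 genes (92.9%) lay lower and 1 higher in null arrays, with a median difference of -0.12, none past the test (0 of 14 at an unadjusted p under 0.05). The largest differences belonged to Fh1 (-0.24), Idh3a (-0.23), Mdh2 (-0.23) and Idh2 (-0.22), or 0.849 to 0.861 times the wild-type level. Genes of the cycle are not independent samples, and their signs were shared through the same 8 arrays.

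Isocitrate dehydrogenase makes 2-oxoglutarate from isocitrate, through an NAD-dependent enzyme with the catalytic subunit Idh3a and the further subunits Idh3b and Idh3g, and through the NADP-dependent mitochondrial enzyme Idh2. Idh3a read 9.92, 9.88, 9.71 and 10.15 in null replicates 1 to 4, against 10.16, 10.53, 10.08 and 9.80 in wild-type replicates 1 to 4. Wild-type replicate 2 was the highest array, and wild-type replicates 3 and 4 lay among the null values (difference -0.23, 95% interval -0.58 to 0.13, limma adjusted p = 0.791). Without wild-type replicate 2 the difference was -0.098. Idh3b, which read 11.53, 11.31, 11.18 and 11.75 in null replicates 1 to 4, against 11.64, 11.65, 11.51 and 11.47 in wild-type replicates 1 to 4, had its highest and lowest values both among null arrays. Its difference was -0.12 (SE 0.14). Idh3g lay within 0.27 over all 8 arrays, with a difference of -0.03 (SE 0.11) and -0.13 (SE 0.12) from a second probe. Idh2 read 9.24, 8.97, 9.07 and 9.30 in null replicates 1 to 4, against 9.45, 9.38, 9.16 and 9.45 in wild-type replicates 1 to 4. Wild-type replicate 3 was the 1 array of its group that lay inside the null range, and the difference was -0.22 (95% interval -0.49 to 0.06, limma adjusted p = 0.753).

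The later steps run from 2-oxoglutarate to oxaloacetate. Fh1, fumarase, which adds water to fumarate, read 9.02, 9.02, 8.71 and 8.81 in null replicates 1 to 4, against 9.28, 9.10, 9.15 and 8.98 in wild-type replicates 1 to 4. The groups met only where wild-type replicate 4 lay below null replicates 1 and 2, and this gene had the smallest p of the cycle (difference -0.24, SE 0.12, limma adjusted p = 0.748). Mdh2, the mitochondrial malate dehydrogenase that closes the cycle, read 9.98, 9.79, 9.47 and 10.02 in null replicates 1 to 4, against 10.20, 10.28, 9.96 and 9.73 in wild-type replicates 1 to 4. Null replicate 3 was lowest, wild-type replicate 4 came next, and the difference of -0.23 (SE 0.16, limma adjusted p = 0.794) was -0.11 without null replicate 3. Suclg2, the GTP-forming subunit of succinyl-CoA synthetase, read 7.21, 6.89, 6.72 and 7.21 in null replicates 1 to 4, against 7.29, 7.11, 7.20 and 7.13 in wild-type replicates 1 to 4. Null replicates 2 and 3 lay below every wild-type array and null replicates 1 and 4 among them, and the difference was -0.17 (SE 0.14, limma adjusted p = 0.811). The ATP-forming partner Sucla2 differed by -0.17 (SE 0.21), and Suclg1, the shared alpha subunit, by -0.03 (SE 0.11), with -0.06 and 0.11 from its other detected probes.

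The remaining genes of the cycle had differences between -0.12 and 0.08. Cs, citrate synthase, which opens the cycle, differed by -0.08. Ogdh, Dlst and Dld together form 2-oxoglutarate dehydrogenase and differed by -0.08, 0.08 and -0.12. Dlst was the single gene of the cycle that lay higher in null arrays; its values ran from 8.32 to 9.13 in null arrays, against 8.40 to 8.79 in wild-type arrays, and null replicates 1 and 2 held its lowest and highest values. Mdh1, the cytosolic malate dehydrogenase of the malate-aspartate shuttle, differed by -0.04, with -0.15 (SE 0.21) from a second probe. Adjusted p for these genes of the cycle in limma's fit ran from 0.878 to 0.973.

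**Figure D2:**
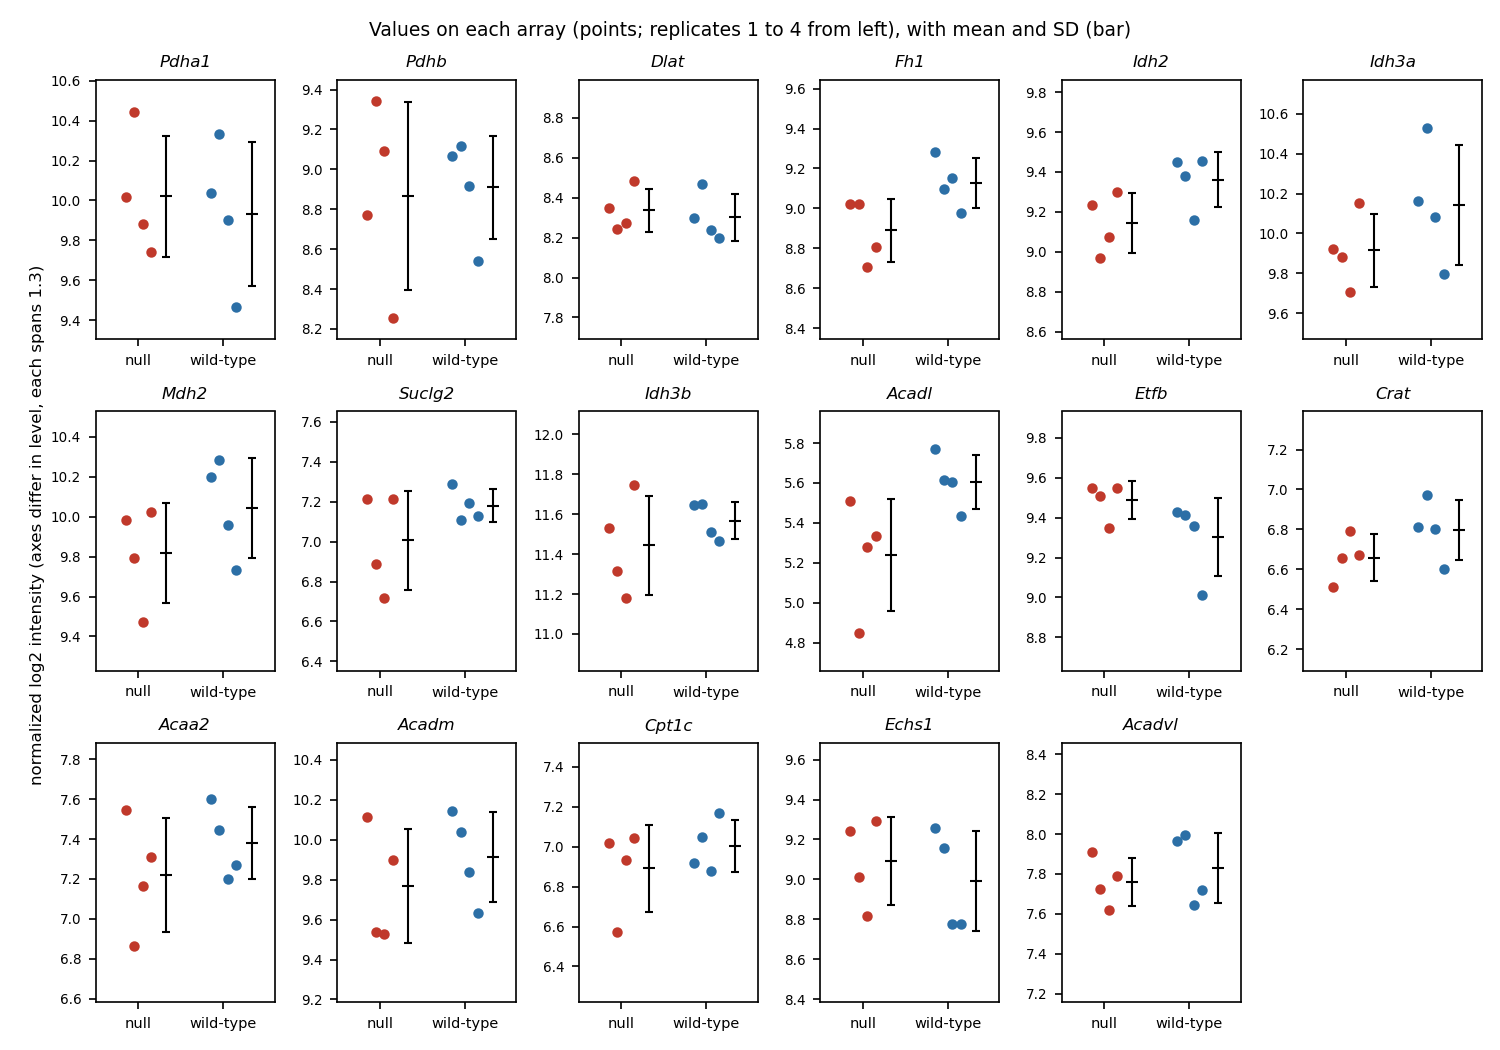
Normalized log2 intensity (y axis, of equal span but different level in each panel) of 17 genes on each null array (left) and wild-type array (right), as points with the group mean and SD as bars; replicates 1 to 4 run from left to right within a group. The 2 groups overlap in every panel.

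Fatty acid oxidation showed a smaller shift between the groups, with 12 of its 16 measured genes (75.0%) lower and 4 higher in null arrays and a median difference of -0.07. The differences ran from -0.36 for Acadl to 0.18 for Etfb. Of the 16, 1 was past an unadjusted p of 0.05 and 0 were past the adjusted threshold in limma's fit. The median turned to 0.02, with 7 of 16 genes lower, when a score of cortical neuron markers entered the fit as a covariate, and among the fits without 1 array it was nearest 0 without wild-type replicate 2 (8 of 16 lower).

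The carnitine shuttle brings long-chain fatty acids into the matrix. The outer-membrane transferase of most tissues, Cpt1a, was not detected on any array, and its lowest detection p was 0.303. The neuronal form Cpt1c, which sits in the endoplasmic reticulum and has little transferase activity, was detected on all 8 arrays. It read 7.02, 6.57, 6.93 and 7.05 in null replicates 1 to 4, against 6.92, 7.05, 6.88 and 7.17 in wild-type replicates 1 to 4. Null replicate 2 alone lay below the others, and the difference of -0.11 (SE 0.14, limma adjusted p = 0.878) was -0.0056 without it. Crat, which makes acetylcarnitine in mitochondria, read 6.51, 6.66, 6.79 and 6.67 in null replicates 1 to 4, against 6.81, 6.97, 6.80 and 6.60 in wild-type replicates 1 to 4. All but replicate 4 of the wild-type arrays lay above every null array, with a difference of -0.14 (SE 0.12, limma adjusted p = 0.831). Cpt2, the inner-membrane transferase, differed by -0.06. Slc25a20, the carrier that exchanges acylcarnitine for carnitine, differed by -0.02 with 1 probe and by 0.20 (SE 0.17) with another.

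The acyl-CoA dehydrogenases take the first oxidation step, each for its own chain length. Acadl, for long chains, read 5.51, 4.85, 5.28 and 5.33 in null replicates 1 to 4, against 5.77, 5.61, 5.60 and 5.43 in wild-type replicates 1 to 4. Null replicate 2 was far below the rest and null replicate 1 lay above wild-type replicate 4, so the groups overlapped by that pair. In the fit as reported, the difference of -0.36 (95% interval -0.69 to -0.03) was the largest of the 33 genes and its p the smallest. It was far from the threshold once adjusted (limma adjusted p = 0.707). Its size depended on the background step, at -0.10 without background correction and -0.53 with the authors' processed values. Without background correction the differences of Idh3a (-0.21) and Fh1 (-0.20) were larger. A second detected probe of Acadl gave -0.04 (SE 0.17), so the 2 probes of the gene disagreed in size, and without null replicate 2 the first gave -0.23. Acadm, for medium chains, read 10.11, 9.54, 9.53 and 9.90 in null replicates 1 to 4, against 10.14, 10.04, 9.84 and 9.63 in wild-type replicates 1 to 4. Null replicates 2 and 3 were lowest, followed by wild-type replicate 4 (difference -0.14, SE 0.17, limma adjusted p = 0.873). Acadvl, for very long chains, read 7.91, 7.73, 7.62 and 7.79 in null replicates 1 to 4, against 7.97, 7.99, 7.65 and 7.72 in wild-type replicates 1 to 4. The ranges of the groups largely coincided (difference -0.07, SE 0.13). Acads, for short chains, differed by -0.07, and Acadsb, for branched short chains, by -0.04.

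Hydration, the second oxidation and thiolysis follow. Echs1, the short-chain enoyl-CoA hydratase, read 9.24, 9.01, 8.82 and 9.29 in null replicates 1 to 4, against 9.26, 9.16, 8.78 and 8.78 in wild-type replicates 1 to 4. Each group held a high and a low pair, and the difference was 0.10 (SE 0.16, limma adjusted p = 0.906). Acaa2, the mitochondrial thiolase, read 7.55, 6.86, 7.16 and 7.31 in null replicates 1 to 4, against 7.60, 7.45, 7.20 and 7.27 in wild-type replicates 1 to 4. Null replicate 2 was lowest, and the difference was -0.16 (SE 0.16, limma adjusted p = 0.850). The 4 detected probes of Acaa2 gave -0.37, -0.16, -0.02 and -0.02, of 1 sign but unequal size. Hadhb, the beta subunit of the trifunctional protein, differed by -0.05, and Decr1, the reductase needed for unsaturated chains, by 0.00. Hadh, the short-chain hydroxyacyl-CoA dehydrogenase, was not detected, with a lowest detection p of 0.415.

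Electron transfer flavoprotein, made of Etfa and Etfb, carries the electrons of these dehydrogenases to Etfdh, which passes them to ubiquinone. Etfb read 9.55, 9.51, 9.35 and 9.55 in null replicates 1 to 4, against 9.43, 9.41, 9.36 and 9.01 in wild-type replicates 1 to 4. The difference of 0.18 (SE 0.13, limma adjusted p = 0.789) was the largest positive one of the 33 genes, wild-type replicate 4 stood apart as the lowest array, and a second probe gave 0.02. Etfa differed by 0.05 with its brightest probe and by -0.05 with each of its 2 other detected probes. Etfdh differed by -0.09.

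The values varied between arrays in a way that crossed the labels. For each section and array a score was taken by centring every gene on its own 8-array mean and averaging the centred log2 values of the section. The score of fatty acid oxidation was 0.14, -0.22, -0.13 and 0.08 in null replicates 1 to 4, against 0.15, 0.18, -0.08 and -0.13 in wild-type replicates 1 to 4. Null replicates 1 and 4 and wild-type replicates 1 and 2 were the high arrays, and the other 4, also 2 from each group, were the low ones. Gene by gene, 14 and 12 of the 16 genes lay above their own mean in null replicates 1 and 4, with 2 and 1 in null replicates 2 and 3. In the wild-type group 13 and 16 of the 16 did so in replicates 1 and 2, with 3 in each of replicates 3 and 4. Over all 10008 genes this share ran only from 45.3% to 53.4% per array. The group means of the score were -0.03 ± 0.17 in null arrays and 0.03 ± 0.16 in wild-type arrays (SD, n = 4 each), so the groups differed by less than the spread within each.

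The score of the citric acid cycle was 0.01, -0.05, -0.22 and 0.02 in null replicates 1 to 4, against 0.19, 0.17, 0.01 and -0.13 in wild-type replicates 1 to 4. Wild-type replicates 1 and 2 were high, null replicate 3 was lowest and wild-type replicate 4 next lowest. Of the 14 genes of the cycle, 9, 5, 1 and 8 lay above their own mean in null replicates 1 to 4, against 14, 12, 10 and 3 in wild-type replicates 1 to 4, and 7 of the 14 had their lowest value in null replicate 3. The group means were -0.06 ± 0.11 in null arrays and 0.06 ± 0.15 in wild-type arrays (SD, n = 4 each), and the ranges of the groups overlapped. Without null replicate 3 the median difference of the cycle was -0.05, and without null replicate 4 it was -0.20. The score of pyruvate entry followed another order, at -0.01, 0.28, 0.02 and -0.24 in null replicates 1 to 4, against 0.07, 0.24, -0.04 and -0.33 in wild-type replicates 1 to 4, high in replicate 2 and low in replicate 4 of both groups.

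**Figure D3:**
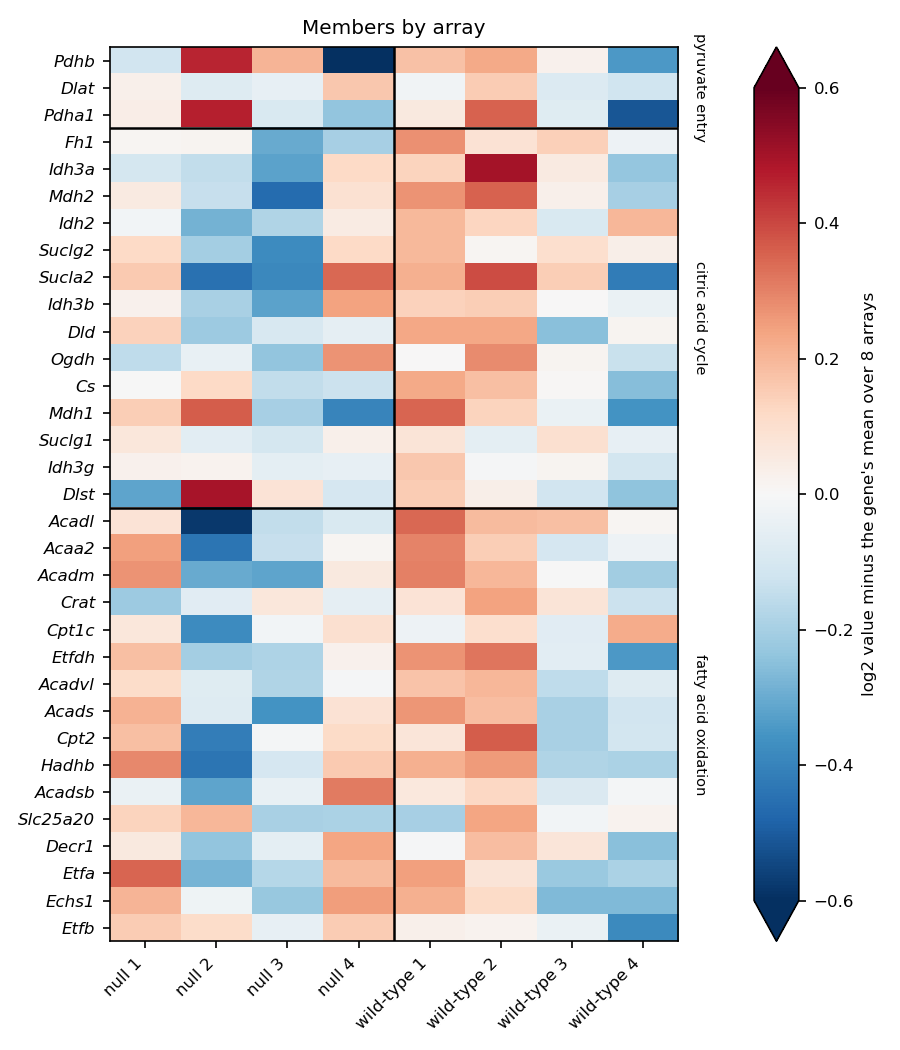
Log2 value after centring each gene on its 8-array mean (colour scale, red above and blue below the mean) for the 33 measured genes (rows) on null replicates 1 to 4 (left) and wild-type replicates 1 to 4 (right). In the lowest block, fatty acid oxidation, 16 of 16 genes are above their mean in wild-type replicate 2, and 15 and 13 of 16 are below it in null replicate 3 and wild-type replicate 3.

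Pvalb, the calcium buffer parvalbumin that marks fast-spiking interneurons, was chosen after its values were seen, because it split the arrays the same way. It read 9.52, 6.43, 5.11 and 9.87 in null replicates 1 to 4, against 9.02, 9.26, 5.74 and 5.28 in wild-type replicates 1 to 4. The 4 arrays high for fatty acid oxidation were those high for Pvalb, and the same 4 had the lowest Ppargc1a values. The part of Pvalb-expressing cells in the spread of these genes was not tested. With the Pvalb level as a covariate, a fit added after seeing the data, the median difference was -0.15 for the cycle and -0.10 for fatty acid oxidation, with 0 genes past the adjusted threshold. Esrra, which encodes an estrogen-related receptor that partners PGC-1α and was likewise chosen after its values were seen, read 9.45, 8.47, 9.31 and 9.44 in null replicates 1 to 4, against 9.45, 9.41, 8.93 and 9.04 in wild-type replicates 1 to 4. Null replicate 2 was its lowest array, and the difference was -0.04 (SE 0.22, limma adjusted p = 0.976).

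**Figure D4:**
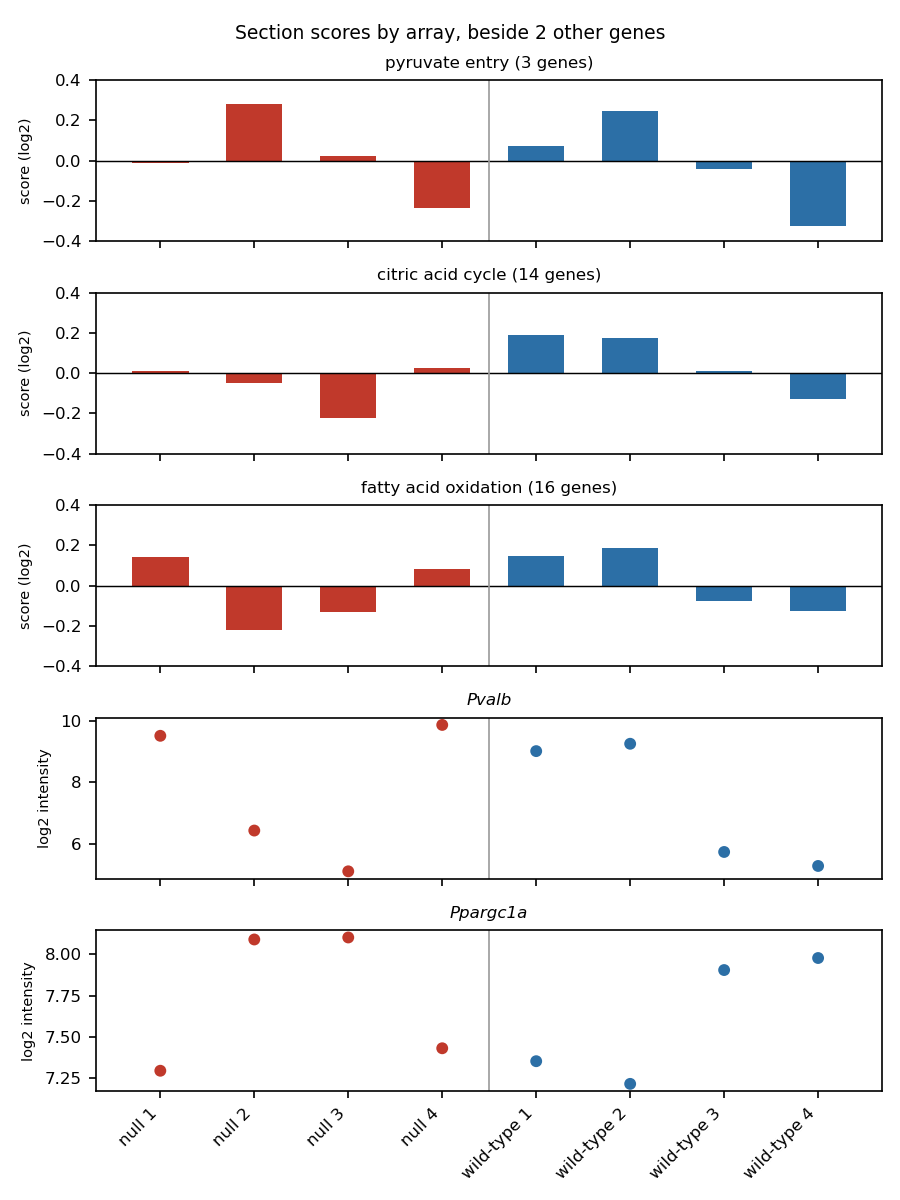
Score of each section (bars, log2, mean deviation of its genes from their own means) and levels of Pvalb and Ppargc1a (points, normalized log2 intensity) on null arrays (red, left) and wild-type arrays (blue, right). Null replicates 1 and 4 and wild-type replicates 1 and 2 have positive fatty acid oxidation scores, Pvalb at 9.02 or above and Ppargc1a at 7.43 or below.

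Markers of other cell types also moved with the arrays. Among markers of cortical excitatory neurons, 7 of 7 measured genes lay higher in null arrays with a median difference of 1.06 (Neurod6 was not detected), and their summed linear intensity ran from 3093 to 9593 in null arrays, against 1871 to 4044 in wild-type arrays. Null replicate 2 had the highest score of this list (1.41) and wild-type replicate 1 the lowest (-1.54). All 10 measured markers of medium spiny neurons lay lower in null arrays, with a median difference of -0.28 and sums of 27785 to 40753 in null arrays, against 42100 to 49430 in wild-type arrays. Markers of oligodendrocytes lay higher in null arrays in 9 of 9 (median 0.25; Ermn was not detected), with sums of 78383 to 106229 in null arrays and 52635 to 97432 in wild-type arrays, wild-type replicate 3 being lowest. The sums of the neuron list for the striatum thus did not overlap between the groups, and those of the other lists did. The scores of the medium spiny neuron list did overlap, at -0.53 to 0.12 in null arrays and 0.01 to 0.34 in wild-type arrays. Astrocyte markers lay higher in 8 of 10 (median 0.15), with sums of 15591 to 17525 in null arrays and 16032 to 19619 in wild-type arrays. Microglial markers lay higher in 5 of 8 (median 0.01), with sums of 3594 to 4467 in null arrays and 3825 to 4288 in wild-type arrays. Endothelial and mural markers lay lower in 10 of 10 (median -0.19), with sums of 1937 to 2433 in null arrays and 2278 to 2750 in wild-type arrays. No marker passed the adjusted threshold, and the part of these cell types in the differences of the members was not tested beyond the fit that follows. With the cortical score as a covariate the median of the cycle was -0.08, with 11 of 14 genes lower. With sex as a covariate the medians were -0.23 for the cycle and -0.16 for fatty acid oxidation, with 2 genes of the cycle at an unadjusted p under 0.05. Without null replicate 2, 14 of 14 genes of the cycle and 9 of 16 of fatty acid oxidation were lower.

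**Figure D5:**
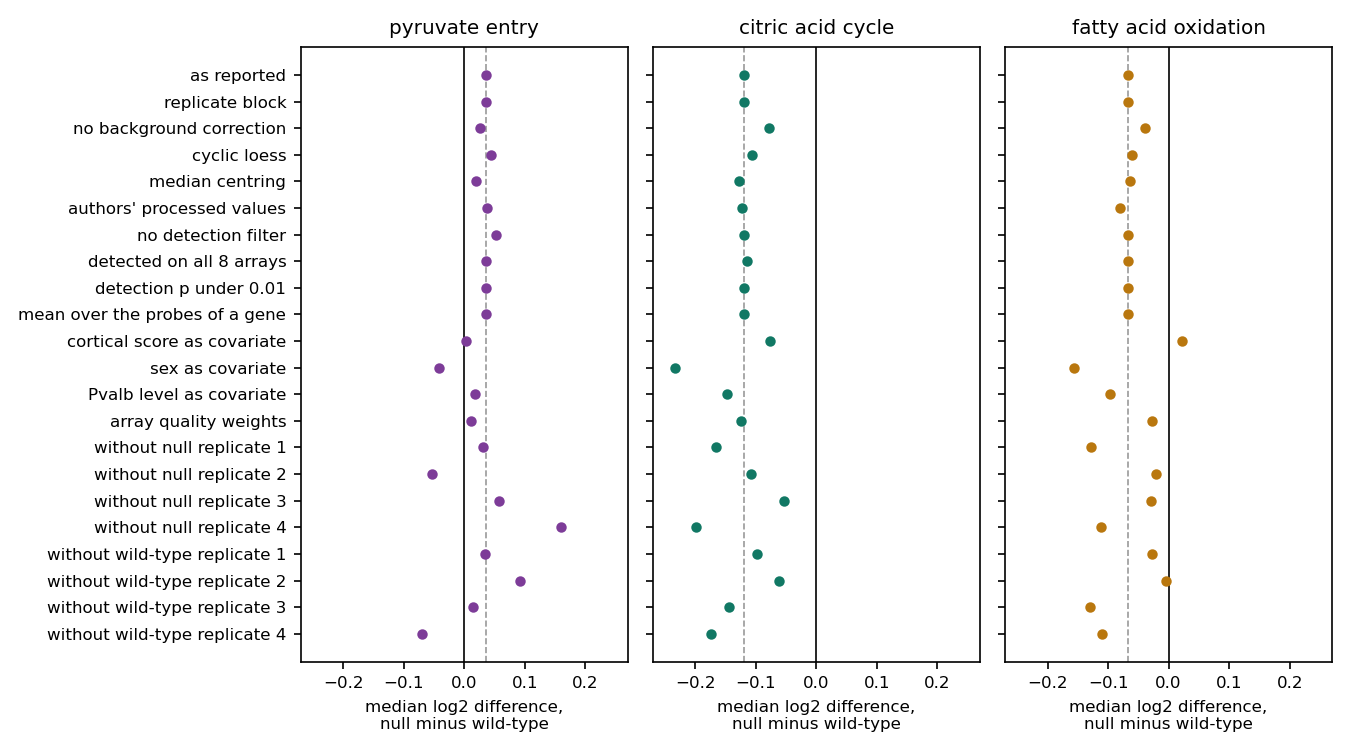
Median log2 difference (x axis, null minus wild-type) of each section as reported (top row, dashed line) and under 21 alternatives (rows), 8 of which leave out 1 array. The median of the cycle stays between -0.23 and -0.05, that of fatty acid oxidation between -0.16 and 0.02, and that of pyruvate entry between -0.07 and 0.16.

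Other genes of the same pathways, from a list of 62, lay on both sides of 0. The table held 56 of them, 7 under an older symbol, and 46 were measured: in null arrays 20 lay higher and 26 lower, with 0 past the adjusted threshold and 0 at an unadjusted p under 0.05 in limma's fit. Around pyruvate entry the median difference was -0.11, with 6 of 8 genes lower. It was 0.02 around the cycle, with 6 of 12 lower, and -0.01 around fatty acid oxidation, with 14 of 26 lower. The measured succinate dehydrogenase subunits Sdhb, Sdhc and Sdhd differed by -0.12, 0.07 and 0.15; these 3 genes of the cycle fall outside the naming rule and were chosen after their values were seen.

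Got2, the mitochondrial aspartate aminotransferase that links oxaloacetate and 2-oxoglutarate to amino acids, was the 1 gene of the 46 whose groups did not overlap. It read 12.24, 12.29, 12.19 and 12.23 in null replicates 1 to 4, against 12.57, 12.62, 12.42 and 12.31 in wild-type replicates 1 to 4. Every null array lay below every wild-type array, as for 2.75% of all genes. The difference was -0.24 (SE 0.11) and did not pass the test (limma adjusted p = 0.730).

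Around pyruvate dehydrogenase, its phosphatase Pdp1 ran from 8.33 to 8.94 in null arrays, against 8.80 to 9.25 in wild-type arrays, a difference of -0.23 (SE 0.16). Its kinase Pdk1 ran from 6.02 to 6.54 in null arrays, against 5.89 to 6.46 in wild-type arrays, a difference of 0.18 (SE 0.16). Both overlapped between groups. Slc25a10, the mitochondrial dicarboxylate carrier, ran from 5.87 to 6.27 in null arrays, against 5.70 to 6.02 in wild-type arrays, with a difference of 0.23 (SE 0.13).

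Of the other genes of fatty acid metabolism, the enoyl-CoA isomerase Eci1, listed under its older symbol Dci, ran from 7.96 to 8.43 in null arrays, against 7.59 to 8.12 in wild-type arrays, with a difference of 0.27 (SE 0.15). The acyl-CoA synthetase Acsl4 ran from 6.02 to 6.89 in null arrays, against 6.27 to 6.54 in wild-type arrays, a difference of 0.23 (SE 0.18). These 2 lay higher in null arrays, and the 3 that follow lay lower. Hsd17b4, of peroxisomal beta-oxidation, differed by -0.19 (SE 0.12). Acad10, an acyl-CoA dehydrogenase detected on 3 arrays of each group, differed by -0.26 (SE 0.19), and the mitochondrial thioesterase Acot2 by -0.28 (SE 0.24). Averaged over their detected probes, Acad10 differed by -0.0062, Acot2 by -0.15 and Acsl4 by 0.077. Without wild-type replicate 4 the difference of Acot2 was -0.064. None of these genes passed the test, and the smallest adjusted p among them in limma's fit was 0.748, for Eci1.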

How the data were processed

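Per the labels' protocols, total RNA came from frozen striatum by way of Trizol, and cRNA made from it carried biotin; the submitters' processing notes name GenomeStudio and no version. The deposited intensity values are, per the file headers, mean bead intensities, linear and not normalized between arrays, each beside the detection p-value that the authors' software gave it. The authors' processed intensity values, with a median of 14.9 to 15.0 per array and 23.1% below 0, are linear; no source used here states how they were normalized, and they entered only as an alternative, with a floor of 16.

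Log2 levels were made from the raw intensities by limma's neqc (version 3.58.1, R 4.3.3), a normexp background step informed by detection p-values, an offset of 16 and quantile normalization. Probes detected (p under 0.05) on at least 4 of 8 arrays were kept, 13413 of 25697 probes (52.2%), for 10008 of 18138 symbols. The contrast null minus wild-type was tested with lmFit and eBayes (two-sided), and p-values were adjusted by Benjamini-Hochberg over the kept probes together. A gene stands for its kept probe of highest mean, and other kept probes of members are given where they differ in sign or size; folds are 2 to the power of the log2 difference. Symbols come from the array's design, older ones being matched through RefSeq synonyms. Precision is limited by the 8 arrays. The fit was tested on simulated data, with noise drawn independently for each probe and array. That test did not cover genes that shift together between arrays, as the members did here.

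Values on every array are given for all of pyruvate entry, Idh3a, Cpt1c, and the 6 genes of the cycle and 8 of fatty acid oxidation with the smallest p, and the 10 other pathway genes with the smallest p are named, except for 1 that is not reported here. The members and lists were chosen with earlier results of these data known. Replicate numbers come from the sample titles. No label says that a shared number pairs samples, so the numbers were not taken to pair them. Deviations from the group means correlated by 0.09, -0.004, 0.23 and 0.05 between arrays of the same number, replicates 1 to 4. Between arrays of different number they correlated by -0.29 to 0.21. The value of replicate 3 was the highest of all pairs, and such correlations cannot decide whether samples were paired. The alternatives changed the background correction, normalization, detection filter, choice of probe or array weights, added the replicate block, a cortical marker score, sex or (chosen after seeing the data) the Pvalb level, or left out 1 array.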

Additional observations from a re-analysis of the deposited data

Results flagged for a closer look

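In 64 groups of 4 arrays, each a named gene or section in 1 genotype, the lowest or highest array was tested for its distance from the others, and chance alone marks about 1 in 20 groups. There were 2 such arrays. For Acsl4, an acyl-CoA synthetase, null replicate 3 read 6.015, below the other null arrays by 0.875 of the group's range. For Etfb, a subunit of electron transfer flavoprotein, wild-type replicate 4 read 9.014, below the other wild-type arrays by 0.832 of the group's range. Without 1 array at a time, the difference of Etfb ran from 0.09 to 0.23 and that of Acsl4 from 0.15 to 0.44 (null minus wild-type, log2).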

How the results depend on the processing

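Under 21 alternatives, 0 of the 33 measured genes and 0 of the 46 other pathway genes passed the adjusted threshold, the smallest adjusted p of the 33 running from 0.515 to 0.971. Over all probes 0 passed, except that leaving out 1 array gave 0 to 1, the 1 without null replicate 4 (adjusted p = 0.0486). The replicate block left the medians at -0.12 for the cycle, -0.07 for fatty acid oxidation and 0.04 for pyruvate entry, with 0 probes past the threshold (smallest adjusted p = 0.518), and not every array correlated best with its own number. Leaving out 1 array at a time moved the median of the cycle to between -0.20 and -0.05, of fatty acid oxidation to between -0.13 and -0.004 and of pyruvate entry to between -0.07 and 0.16; these fits kept the normalization and probes of all 8 arrays.

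Of 586 comparisons for 28 named genes, 570 kept their direction and side of the threshold and 16 changed sign, none of them past the threshold; 20 genes changed sign under no alternative. With the cortical score as a covariate Acaa2 was at 0.012, Pdp1 at 0.0056 and Ppargc1a at -0.014. With sex as a covariate Acsl4 was at -0.020, Dlat at -0.042, Echs1 at -0.046 and Pdha1 at -0.091. Leaving out 1 array moved Dlat to between -0.013 and 0.092, Pdha1 to between -0.070 and 0.22, Pdhb to between -0.20 and 0.16 and Ppargc1a to between -0.016 and 0.26. Of the named genes, Fh1, Idh2, Got2 and Slc25a10 stayed within 1.5 times their difference without any 1 array, and the others did not. The cause was not tested. Signals near background, such as those of Sucla2 and Acad10, carry the least precise differences.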
